A study of Mus musculus with 3 samples.

Results

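The genes described here carry, activate, inactivate, bind and read thyroid hormone in the neonatal mouse midbrain, and number 8 of the 49585 genes listed for each library. They are the receptors Thra and Thrb, the deiodinases Dio2 and Dio3, the transporter Slco1c1, the hormone-binding protein Crym and the target genes Hr and Klf9. The genes were chosen by symbol. Each of the 8 symbols had 1 row, and all 8 passed the filter on low counts. The samples were total RNA from midbrain of C57BL/6 mice at postnatal day 3, as 2 libraries of genotype FGR and 1 library of wild-type genotype (WT). FGR is used as the labels give it, since they do not spell it out and name no allele or agent. The comparison of FGR with WT is the only one that these labels allow.

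Thyroxine reaches the brain through transporters such as OATP1C1, the product of Slco1c1, which sits in brain endothelium and astrocytes of rodents. Type 2 deiodinase, encoded by Dio2 and found mostly in astrocytes and tanycytes, converts thyroxine to the active hormone triiodothyronine. Type 3 deiodinase, encoded by Dio3, inactivates both hormones. Triiodothyronine then binds nuclear receptors that pair with retinoid X receptors on DNA, and the hormone surge of the first weeks of life drives myelination and maturation of neurons in rodents.

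Dio2 was the 1 gene of the 8 called lower in the FGR midbrain libraries, 2.53-fold below WT, and 0 of the 8 were called higher. That call was made by edgeR and not by DESeq2, where 0 of the 8 were called (Dio2 adjusted p = 0.345 without DESeq2's filter on low counts). The libraries also differed in regional markers. In FGR replicates 1 and 2, summed hypothalamic markers were at 0.209 and 0.200 of WT and hindbrain markers at 11.8 and 10.1 times WT. The part of regional content in the Dio2 level was not tested. Among the 8 genes, Thra, by far the most abundant, and Slco1c1 were slightly above WT in both FGR libraries. Thrb, Dio3, Crym and Hr were below WT in both. None of these other differences passed the test. Klf9 was below WT in 1 FGR library and above it in the other. By edgeR's quasi-likelihood test over 25561 genes, 1 of 8 was called lower at an adjusted p under 0.05, where 2.59% of all genes tested were called lower, 1.66% higher and 4.25% in either direction. Of all calls, 39.0% were higher in FGR, against 24.4% when counts were scaled by library totals alone. At an unadjusted p under 0.05, 5 of the 8 passed edgeR's test (Dio2, Dio3, Slco1c1, Crym and Hr) and 1 of the 8 passed DESeq2's (Dio2). Over all genes, 4685 of 25561 passed at that cut in edgeR and 1742 of 35837 in DESeq2. With so few genes, 1 call is not a result about the group. Of the 8, 5 were below WT in both FGR libraries and 2 were above it in both, where 38.2% and 38.5% of all tested genes did so. The median log2 fold change of the 8 was -0.36, and that of all tested genes was 0.0051.

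Both deiodinases are selenoenzymes, in which an in-frame TGA codon is read as selenocysteine in the active site. The coding sequences around this codon are shown because they are what Dio2 and Dio3 share as enzymes of opposite effect. They come from GENCODE M21 transcripts, 5′ to 3′ on the coding strand, with the selenocysteine codon in capitals.
Dio2: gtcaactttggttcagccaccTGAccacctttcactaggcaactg
Dio3: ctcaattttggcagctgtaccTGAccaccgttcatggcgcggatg
The codon was number 130 of 266 in Dio2 and 170 of 304 in Dio3, and 28 of the 45 bases shown were identical. Dio2 had 2 annotated selenocysteine codons, the last at codon 263, and Dio3 had 1.

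The promoters of the deiodinases are shown because these were the genes furthest below WT. RefSeq's promoter table (GRCm38.p6) held 6 promoters of 5 of the 8 genes, namely Dio2, Dio3, Slco1c1, Klf9 and Thrb, which has 2. Each runs from 250 bases before the annotated start to 50 bases after it. Capitals mark the cAMP response element TGACGTCA and the TATA box TATAAA.
Dio2, chr12:90738989-90739288, minus strand: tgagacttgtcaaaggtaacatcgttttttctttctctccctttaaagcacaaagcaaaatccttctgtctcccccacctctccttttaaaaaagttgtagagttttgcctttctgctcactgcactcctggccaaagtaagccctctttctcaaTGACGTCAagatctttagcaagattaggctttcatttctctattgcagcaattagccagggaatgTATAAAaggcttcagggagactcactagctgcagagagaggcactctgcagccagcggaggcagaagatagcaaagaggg
Dio3, chr12:110278980-110279279, plus strand: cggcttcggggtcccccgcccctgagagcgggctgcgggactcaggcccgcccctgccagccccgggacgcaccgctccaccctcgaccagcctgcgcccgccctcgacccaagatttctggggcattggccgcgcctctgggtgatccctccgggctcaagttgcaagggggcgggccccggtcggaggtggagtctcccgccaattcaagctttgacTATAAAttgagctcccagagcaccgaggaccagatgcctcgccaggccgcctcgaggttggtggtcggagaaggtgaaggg
The Dio2 window held the cAMP response element 95 to 88 bases before the start and a TATA box 30 to 25 bases before it. The Dio3 window held a TATA box 31 to 26 bases before its start and was richer in G and C (69% against 44.7% in the Dio2 window). On either strand, TGACGTCA was in 1.79% and TATAAA in 13.6% of the 32851 mouse promoters in the table. The half-site AGGTCA of thyroid hormone receptors was in 16.3% of all promoters and in 1 of the 6 here, the one of Thrb that lies upstream. A direct repeat of that half-site with 4 bases between the copies was in 5 of 32851 and in 0 of the 6. A match is a description of these letters and not a site. GENCODE M21 places the start of Dio2 600 bases from the RefSeq start and that of Dio3 162 bases from it.

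The deposited counts summed to 58444481 and 46240262 in FGR replicates 1 and 2, and to 52874311 in WT. WT was a single library, so its spread was not measured. The labels do not say how many animals gave each library. Each p-value rests on the spread between the FGR samples, moderated over all tested genes, and that spread may be technical in part. Xist had 34285 and 78 counts in the FGR libraries and 29129 in WT, and 4 Y-linked genes summed to 9 and 9404 counts in the FGR libraries and 0 in WT. FGR replicate 2 therefore differed from the other libraries as males differ from females. So the FGR libraries were not 2 preparations of 1 animal, and the spread between them includes any difference by sex. The 6 midbrain markers summed to 188 and 171 CPM (counts scaled to library size by TMM) in the FGR libraries, against 116 CPM in WT, with none at 0. The 8 hypothalamic markers summed to 7.78 and 7.44 CPM in FGR, against 37.2 CPM in WT. The 7 hindbrain markers summed to 44.7 and 38.0 CPM in FGR, against 3.77 CPM in WT.

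Levels per length, as the authors' RPKM (reads per kilobase, scaled to library total), set Thra far above the others. Thra was at 85.9 and 87.0 RPKM in the FGR libraries and 82.5 RPKM in WT, above 98.5%, 98.4% and 98.2% of the tested genes of those libraries. Slco1c1 came next, at 8.15 and 8.26 RPKM in FGR and 7.42 RPKM in WT. Klf9 followed, at 2.31 and 3.12 RPKM in FGR and 3.04 RPKM in WT. Crym, Thrb and Hr came next in that order in every library, with Crym at 1.02 and 0.931 RPKM in FGR and 1.34 RPKM in WT, and the 95% Poisson intervals of Crym and Thrb overlapped in both FGR libraries but not in WT. The deiodinases were lowest. In WT the intervals of Hr (0.553 to 0.718 RPKM), Dio2 (0.536 to 0.716 RPKM) and Dio3 (0.435 to 0.730 RPKM) overlapped, so their order was not resolved there. The intervals of Dio2 and Dio3 overlapped in both FGR libraries as well (0.163 to 0.264 and 0.116 to 0.281 RPKM in FGR replicate 1, 0.213 to 0.341 and 0.242 to 0.494 RPKM in FGR replicate 2), and those of Hr and Dio3 overlapped in FGR replicate 2, so those orders were not resolved either. These intervals cover counting error only.

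**Figure D1:**
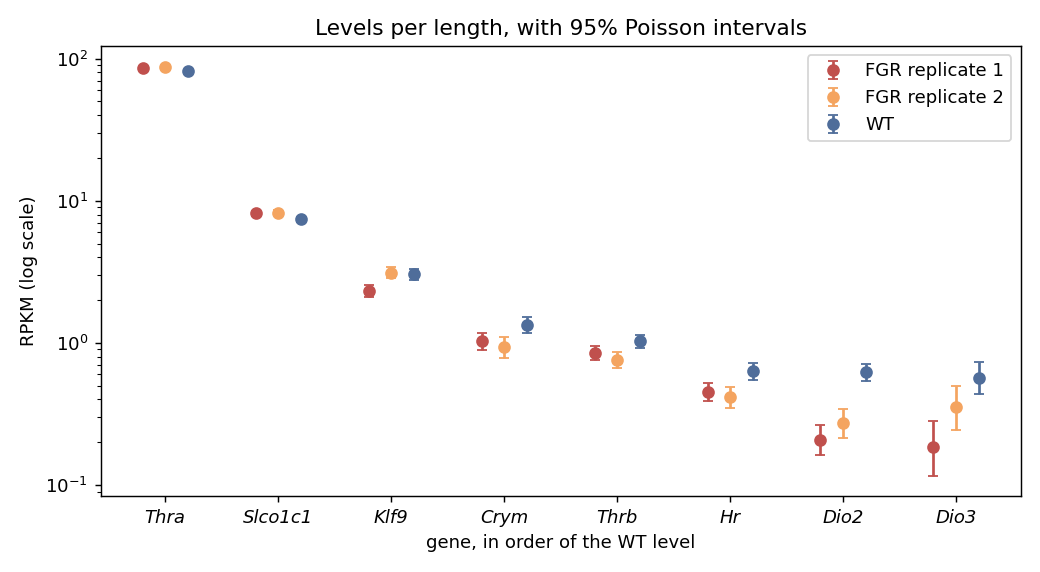
Level per length (RPKM, log axis) of the 8 genes in FGR replicate 1, FGR replicate 2 and WT, with 95% Poisson intervals for counting error. Thra lies between 82.5 and 87.0 RPKM in the 3 libraries, far above Slco1c1, and Dio2 and Dio3 lie at the bottom.

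Of the receptors, Thra encodes the form that predominates in the developing brain, and a splice form of it that does not bind hormone. Thra (ENSMUSG00000058756.13) had 23174 and 18554 counts in the FGR libraries and 20116 counts in WT, or 399.5 and 406 CPM in FGR and 374 CPM in WT. Both FGR libraries lay slightly above WT, by ratios of 1.07 (95% binomial interval 1.05 to 1.09) and 1.09 (1.06 to 1.11). Thra had a log2 fold change of 0.11 ± 0.09 (SE) and was not called (edgeR adjusted p = 0.595). In GENCODE M21, 263 of the 4614 exon bases of Thra (5.70%) also belong to Nr1d1, the circadian repressor gene on the opposite strand, and the labels do not say whether counting used the strand. Nr1d1 was at 32.5 and 31.7 CPM in FGR and 33.4 CPM in WT (edgeR adjusted p = 0.793).

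Thrb encodes the receptor that governs feedback on the pituitary and hypothalamus and the development of hearing and colour vision. Thrb (ENSMUSG00000021779.16) had 325 and 230 counts in FGR and 357 in WT, or 5.60 and 5.03 CPM in FGR and 6.63 CPM in WT. Both FGR libraries were below WT, with ratios of 0.845 (95% binomial interval 0.725 to 0.985) and 0.759 (0.640 to 0.898). The log2 fold change of -0.32 ± 0.16 (SE) was not called (edgeR adjusted p = 0.318). Per length, the Thra level was 101 and 115 times that of Thrb in the FGR libraries and 80.1 times in WT.

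**Figure D2:**
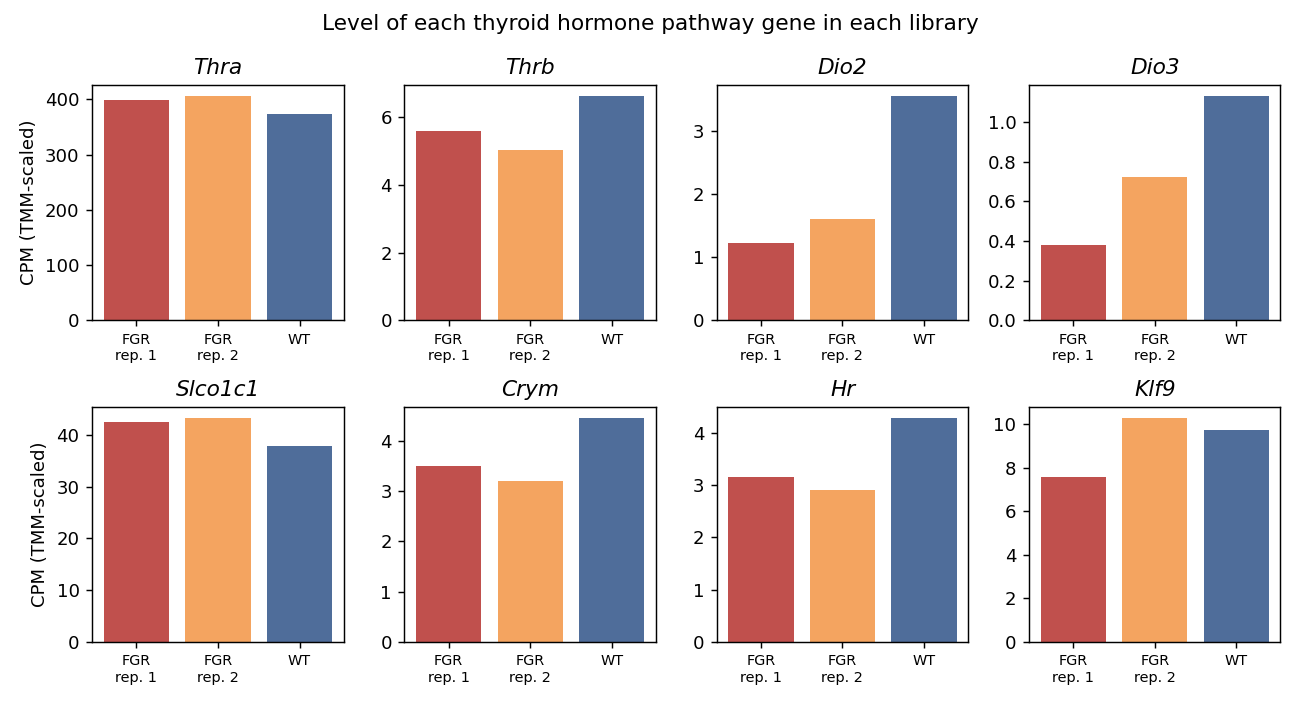
Level of each of the 8 genes (TMM-scaled CPM, each panel with its own axis from 0) in FGR replicate 1, FGR replicate 2 and WT, 1 bar per library. Dio2 is at 1.22 and 1.60 CPM in FGR and 3.55 CPM in WT, and Thra and Slco1c1 are the genes with both FGR bars above the WT bar.

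Dio2 (ENSMUSG00000007682.5) had 71 and 73 counts in the FGR libraries and 191 counts in WT. This was 1.22 and 1.60 CPM in FGR (1.41 ± 0.264, SD, n = 2) and 3.55 CPM in WT, both FGR libraries well below WT. The ratio to WT was 0.345 in FGR replicate 1 (95% binomial interval 0.259 to 0.455) and 0.450 in FGR replicate 2 (0.339 to 0.592). Dio2 was 2.53-fold lower in FGR, a change of -1.34 ± 0.24 (log2, SE) at an edgeR adjusted p of 0.00561. The difference between the FGR libraries was within counting error, at a ratio of 0.766 (95% binomial interval 0.545 to 1.08). The call was lost in DESeq2. DESeq2's filter on low counts gave Dio2 no adjusted p, and without that filter the adjusted p was 0.345 (unadjusted p = 0.00634). An antisense gene, Gm26512, shares 100 exon bases with Dio2 and had 7 and 3 counts in FGR and 5 in WT.

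Dio3 (ENSMUSG00000075707.5), an imprinted gene expressed mainly from the paternal copy, had 22 and 33 counts in FGR and 61 in WT. This was 0.379 and 0.722 CPM in FGR and 1.13 CPM in WT, both below WT but also unlike each other. The ratio of FGR replicate 1 to FGR replicate 2 was 0.525 (95% binomial interval 0.292 to 0.929). That gap was wider than that of 94.4% of the tested genes, which were not matched to Dio3 for depth. The log2 fold change was -1.07 ± 0.42 (SE) and was not called (edgeR adjusted p = 0.182). It was -1.57 in FGR replicate 1 alone against WT and -0.66 in FGR replicate 2 alone. Dio2 and Dio3 levels per length stood at a ratio of 1.13 and 0.773 in the FGR libraries and 1.09 in WT.

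**Figure D3:**
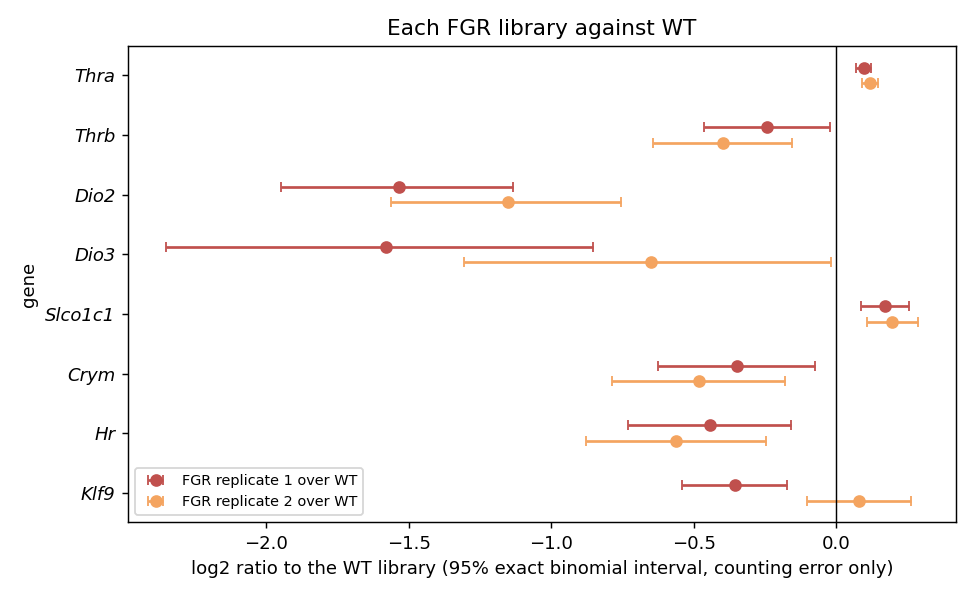
The log2 ratio of each FGR library to WT for the 8 genes, with 95% exact binomial intervals for counting error only; 0 marks the WT level. Dio2 lies at ratios of 0.345 and 0.450 of WT, and Klf9 is the gene whose FGR libraries lie on opposite sides of 0.

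Slco1c1 (ENSMUSG00000030235.17) had 2469 and 1980 counts in FGR and 2034 in WT, or 42.6 and 43.3 CPM in FGR and 37.8 CPM in WT. The FGR libraries were nearly equal to each other and both above WT, with ratios of 1.13 (95% binomial interval 1.06 to 1.20) and 1.15 (1.08 to 1.22). A log2 fold change of 0.18 ± 0.08 (SE) was not called (edgeR adjusted p = 0.219). Slco1c1 and Dio2 thus lay on opposite sides of WT, and the Slco1c1 level per length was 39.0 and 30.4 times that of Dio2 in FGR and 11.9 times in WT. Crym (ENSMUSG00000030905.5), which encodes a cytosolic protein that binds triiodothyronine, had 203 and 146 counts in FGR and 240 in WT. It was at 3.50 and 3.19 CPM in FGR and 4.46 CPM in WT, both FGR libraries below WT, and its change of -0.41 ± 0.18 (log2, SE) was not called (edgeR adjusted p = 0.248).

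Of the targets, Hr encodes a corepressor of nuclear receptors whose gene is induced by thyroid hormone in the neonatal rat brain. Hr (ENSMUSG00000022096.14) had 183 and 133 counts in FGR and 231 in WT, or 3.16 and 2.91 CPM in FGR and 4.29 CPM in WT. Both FGR libraries were below WT, with ratios of 0.735 (95% binomial interval 0.602 to 0.896) and 0.678 (0.544 to 0.843), and the log2 fold change of -0.50 ± 0.19 (SE) was not called (edgeR adjusted p = 0.163). Klf9 (ENSMUSG00000033863.1) encodes a zinc finger factor that is induced by thyroid hormone and also by glucocorticoids. It had 441 and 471 counts in FGR and 524 in WT, or 7.60 and 10.3 CPM in FGR and 9.73 CPM in WT. FGR replicate 1 was below WT and FGR replicate 2 above it, and the ratio between the FGR libraries was 0.738 (95% binomial interval 0.647 to 0.842). Its change of -0.12 ± 0.17 (log2, SE) was not called (edgeR adjusted p = 0.769).

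Markers of several other cell types and regions were below WT along with Dio2, and those of others were not. In bulk RNA, fewer cells of a type and less RNA per cell cannot be told apart. Over all tested genes, 2.59% were called lower, 1.66% were called higher and 38.2% lay below WT in both FGR libraries. Of 8 astrocyte markers 3 were called lower (Gfap, and, named after their values were seen, Aqp4 and Gja1), 6 were below WT in both FGR libraries, and their summed level was 852 and 968 CPM in FGR and 1104 CPM in WT. Gfap was the one of 169 list genes with the pattern most like that of Dio2 over the 3 libraries, at 16.9 and 23.1 CPM in FGR and 48.3 CPM in WT. The Euclidean distance between their centred log2 CPM values was 0.064, and 2 of 18638 genes with a mean of at least 1 CPM were closer. Dio2 counts per 1000 summed astrocyte marker counts were 1.44 and 1.65 in FGR and 3.21 in WT, so the ratio to WT was 0.447 and 0.514 on that scale. The 6 meningeal markers, of which 5 were called lower, summed to 228 and 384 CPM in FGR and 614 CPM in WT. Per 1000 of their counts, Dio2 had 5.38 and 4.15 counts in FGR and 5.78 in WT. The ratio to WT depended on the list used as the scale. It was 1.65 and 2.25 per hypothalamic marker count, 0.925 and 1.15 per forebrain GABA marker count, and 0.213 and 0.306 per midbrain marker count. Of 6 tanycyte markers 4 were below WT in both FGR libraries, none of them called, and Lhx2 was called higher (edgeR adjusted p = 0.0298). Their sum of 173 and 189 CPM in FGR and 173 CPM in WT was mostly Vcan, at 126 and 142 CPM in FGR and 126 CPM in WT. Rax, the defining tanycyte marker, had 0 and 2 counts in FGR and 14 in WT. Lhx2, Vcan and Rax were also picked out after the fact. Other glia were not alike. Of 6 oligodendrocyte precursor markers 3 were called lower and 6 were below WT in both FGR libraries, with sums of 283 and 300.3 CPM in FGR and 377 CPM in WT. Of 6 microglial markers 3 were called lower and 6 were below WT in both, with sums of 65.0 and 72.9 CPM in FGR and 95.5 CPM in WT. Of 6 mature oligodendrocyte markers 0 were called and 3 were below WT in both. Their sums were 88.2 and 89.8 CPM in FGR and 96.3 CPM in WT. Of 6 general neuron markers 0 were called and 4 were below WT in both. Of 6 mature projection neuron markers 3 were called lower. Midbrain and hindbrain markers went the other way, with 5 of 6 and 6 of 7 called higher. Of 8 hypothalamic markers 7 were called lower, and of 7 markers of forebrain GABA neurons, which summed to 11.3 and 11.8 CPM in FGR and 30.2 CPM in WT, 4 were. Their part in the lower Dio2 level was not tested.

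**Figure D4:**
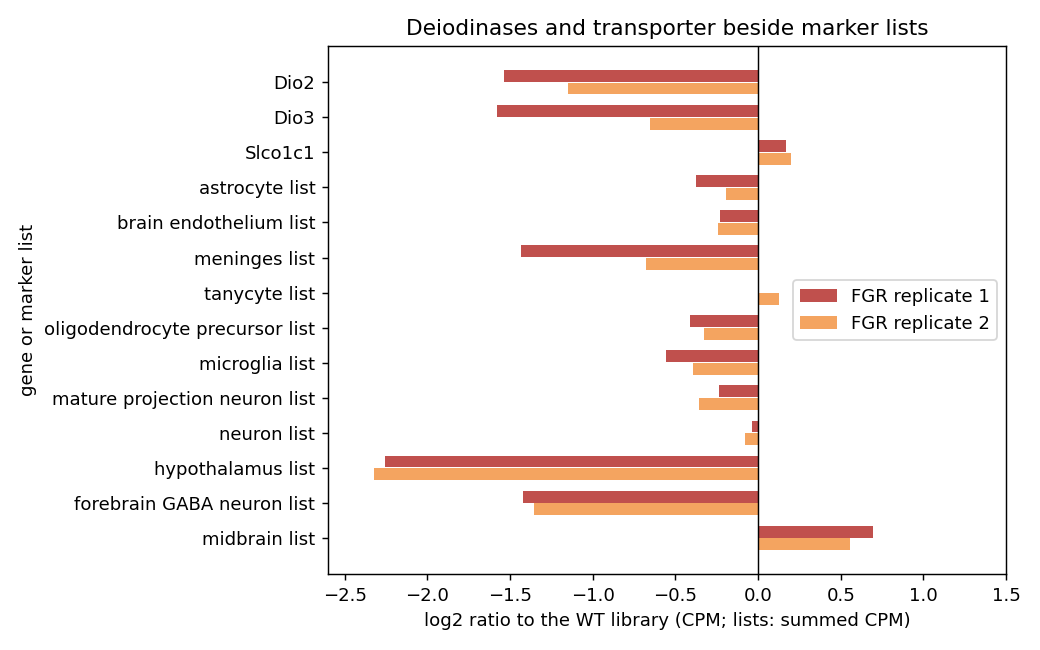
The log2 ratio of each FGR library to WT for Dio2, Dio3, Slco1c1 and the summed CPM of 11 marker lists; 0 marks the WT level. Dio2, Dio3 and all lists drawn except the tanycyte and midbrain lists lie below 0 in both FGR libraries. Slco1c1 and the midbrain list lie above 0 in both. The hindbrain list, at log2 ratios of 3.57 and 3.33, is not drawn.

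For the other genes, the nearest patterns among 169 list genes were those of Lum and Ptgds of the meninges for Dio3 (distances of 0.014 and 0.022), of Cldn5 of the endothelium for Thrb (0.017) and of Rasd2, itself thyroid hormone responsive, for Hr (0.039). Lum was at 1.93 and 3.57 CPM in FGR and 5.44 CPM in WT, with the same order of libraries as Dio3. Nefh, a neurofilament gene of large projection neurons, was nearest to Crym (0.061). Slc2a1, the glucose transporter gene of the endothelium, was nearest to Thra (0.0077), Nr1d2 to Slco1c1 (0.0066) and Shh to Klf9 (0.076). With 3 libraries that all genes share, these are descriptions. Of all 18638 genes with a mean of at least 1 CPM, 0 and 1 were closer to Dio3 than Lum and Ptgds, 20 were closer to Slco1c1, 21 to Thrb, 32 to Hr, 38 to Thra, 115 to Klf9 and 140 to Crym than the list gene named. The 8 endothelial markers summed to 160 and 159 CPM in FGR and 188 CPM in WT. Of these markers 3 were called lower, where 2.59% of all tested genes were. Slco1c1 counts per 1000 endothelial marker counts were 267 and 273 in FGR and 202 in WT.

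Of the other pathway genes, 7 of 97 tested were called lower and 1 higher, where 2.59% and 1.66% of all tested genes were. The median log2 fold change of the 97 was 0.037. No call was made among the 11 tested transporters and carriers, 6 genes of deiodinase 1 and selenoprotein synthesis, 3 retinoid X receptors, 6 corepressors, 8 coactivators or 9 Krüppel-like factors. At an unadjusted p under 0.05 the counts in those lists were 3, 2, 1, 0, 1 and 2, where 4685 of all 25561 tested genes passed edgeR's test at that cut. DESeq2 made no call in them either. The most abundant genes of these lists per length were Slc3a2, Sephs2, Rxrb, Hdac3, Crebbp and Klf6, with log2 fold changes between -0.028 and 0.17. Rxrb, the highest of these, was called with a GC and length offset (edgeR adjusted p = 0.0468). Dio1 had 2 and 0 counts in FGR and 0 in WT. Ttr, the thyroxine carrier made by the choroid plexus, is outside the rule for naming and was picked out after the fact, and it was at 1.26 and 4.24 CPM in FGR and 0.669 CPM in WT (edgeR adjusted p = 0.0561). It was called under 3 alternatives, with edgeR adjusted p between 5.72e-10 and 0.0369. Trit1 of the selenoprotein list, likewise picked out, was at 27.7 and 25.5 CPM in FGR and 20.3 CPM in WT (edgeR adjusted p = 0.0656), and was called higher without a filter on low counts, with a robust fit and with limma-voom.

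**Figure D5:**
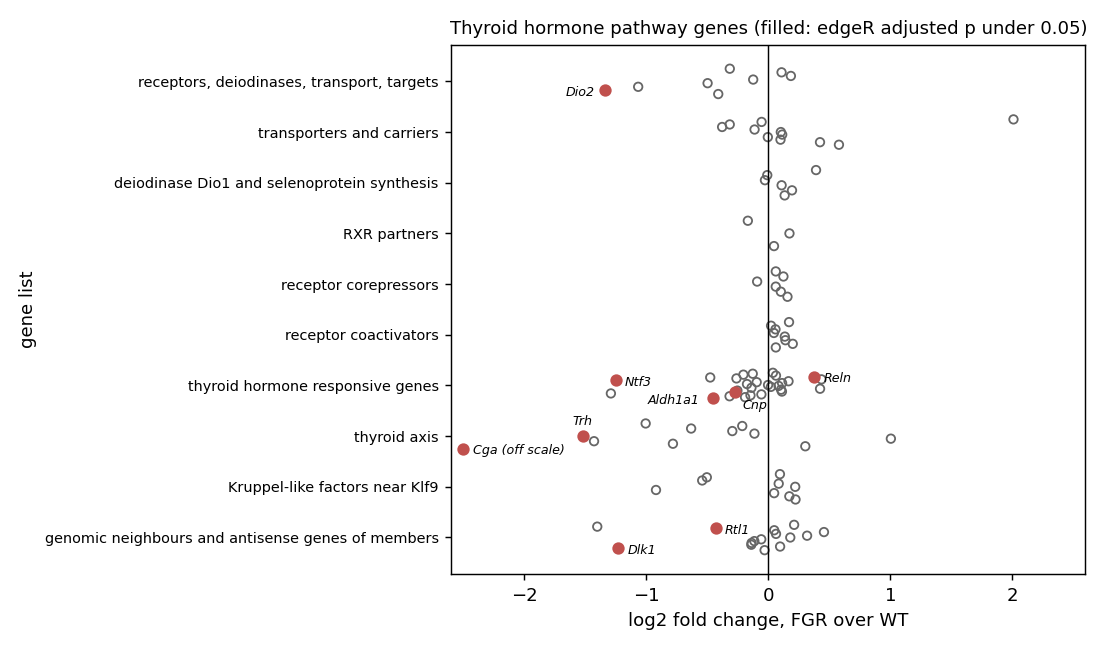
The log2 fold change of FGR over WT (edgeR) for each tested gene of the 8 described and of 9 further lists, 1 point per gene; filled points passed an adjusted p under 0.05. Cga, at 0 counts in FGR, is drawn at the left edge, and the calls lie among the deiodinases, responsive genes, axis genes and neighbours.

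Among 28 genes known to respond to thyroid hormone in brain or liver, 3 were called lower and 1 higher. Of the 28, 13 were below WT in both FGR libraries and 8 above it in both. Over all tested genes 2.59% were called lower, 1.66% higher, 38.2% lay below WT in both and 38.5% above it in both. The median log2 fold change of the 28 was -0.11. The list does not separate genes that the hormone raises from genes that it lowers, so these values are no measure of a hormone response. The part of tissue content in the 28 was not tested. Ntf3, which encodes neurotrophin 3, was at 0.690 and 0.613 CPM in FGR and 1.56 CPM in WT, and the log2 fold change was -1.25 ± 0.33 (SE, with an edgeR adjusted p of 0.0452). Aldh1a1, a retinaldehyde dehydrogenase gene of midbrain dopamine neurons, was at 20.8 and 25.2 CPM in FGR and 31.5 CPM in WT (edgeR adjusted p = 0.0474). Cnp, a myelin enzyme gene, was at 45.8 and 46.0 CPM in FGR and 55.6 CPM in WT (edgeR adjusted p = 0.0370). Reln, the gene called higher, encodes the secreted protein reelin and was at 282 and 305 CPM in FGR and 226 CPM in WT (edgeR adjusted p = 0.0288). Flywch2, the most abundant of the responsive genes per length, had a log2 fold change of 0.10 and was not called. DESeq2 called Reln (adjusted p = 0.00459) but not Cnp or Aldh1a1 (adjusted p = 0.326 and 0.168), and gave Ntf3 no adjusted p, or one of 1.00 without its filter. Reln was not called with a CPM of at least 1 required in every library (edgeR adjusted p = 0.0873), nor were Cnp and Aldh1a1 (edgeR adjusted p = 0.0795 and 0.105). Cnp was also not called with limma-voom (adjusted p = 0.0638) or with a GC and length offset (edgeR adjusted p = 0.0558).

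Of 11 genes of the thyroid axis, 2 were called lower and 0 higher, against 2.59% and 1.66% of all tested genes. Trh, the hypothalamic releasing hormone gene, was at 1.45 and 1.14 CPM in FGR and 3.73 CPM in WT, and its log2 fold change was -1.52 ± 0.23 (SE, with an edgeR adjusted p of 0.00230). DESeq2 without its filter gave Trh an adjusted p of 0.156. Cga, the alpha subunit gene shared by thyrotropin and other pituitary hormones, had 0 counts in both FGR libraries and 37 in WT, at least 23.8-fold lower against a floor of 3 counts over the FGR libraries. Tshb, which encodes the beta subunit of thyrotropin and was also picked out after the fact, was at 1.10 and 1.07 CPM in FGR and 1.26 CPM in WT (edgeR adjusted p = 0.775). Trhde, the most abundant of the axis genes, was at 38.5 and 34.7 CPM in FGR and 39.7 CPM in WT. Trh and Cga are also in the lists of hypothalamic and pituitary markers, and the 6 pituitary markers summed to 2.29 and 2.65 CPM in FGR and 3.59 CPM in WT. The part of tissue content in these calls was not tested.

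Dio3 lies at the end of an imprinted cluster on mouse chromosome 12. Of 15 tested genomic neighbours and antisense genes of the 8, 2 were called lower and 0 higher, where 2.59% and 1.66% of all tested genes were. The 2 were Dlk1 and Rtl1, which like Dio3, itself not called, are expressed from the paternal copy. Dlk1 was at 4.24 and 3.46 CPM in FGR and 9.07 CPM in WT, with a change of -1.23 ± 0.17 (log2, SE) and an edgeR adjusted p of 9.11e-04. Rtl1 was at 88.8 and 76.6 CPM in FGR and 112 CPM in WT, with a change of -0.43 ± 0.08 (log2, SE) and an edgeR adjusted p of 0.00778, or 0.0526 with a CPM of at least 1 required in every library. The noncoding RNAs of the maternal copy were not called, with log2 fold changes of -0.14 for Meg3, 0.048 for Rian and -0.14 for Mirg (edgeR adjusted p = 0.660, 0.892 and 0.386); that of Rian was -0.074 with a GC and length offset. The neighbours of the other genes were not called, among them Med24 and Msl1 near Thra and Rarb and Nr1d2 near Thrb. Neither a link to imprinting nor the part of tissue content in the Dlk1 and Rtl1 calls was tested.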

How the data were processed

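Total RNA libraries, 2 FGR and 1 WT, were grouped by the genotype label. Trizol extraction and a TruSeq RNA kit were used, per the labels' protocols, and the submitters' processing notes list HISAT2 as a tool. Neither its version nor the genome build, counter or strand setting is given in the sources used here. Each deposited table holds a raw read count and a length per gene. The authors' deposited RPKM equalled count per length and total to within 0.000498 percent of each value and was used only for levels between genes.

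The test was run with edgeR 4.0.16 (R 4.3.3), using filterByExpr (minimum count 10), TMM scaling, its quasi-likelihood F test (two-sided, FGR over WT) and Benjamini-Hochberg adjustment over 25561 genes. The 1 residual degree of freedom came from the FGR pair, so the WT library was assumed to vary like it. The fit moderated the spread of each gene toward a trend over all tested genes. The p-value of a gene thus does not rest on the spread of its own FGR pair alone. SE was obtained from the log2 fold change and F, as their quotient with F under a square root. The FGR libraries differed far beyond counting noise (chi-square per degree of freedom 10.4) and were kept as 2 samples. Intervals of ratios are exact binomial and use TMM-scaled library sizes.

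The members and lists were chosen with earlier results of these data known. Named are all 8 genes, up to 4 called genes of each list by p, its most abundant gene, genomic neighbours, and the nearest patterns among list genes at a mean CPM of at least 1 (the nearest 2 were found for each gene, and the closest are given). Aqp4, Gja1, Lhx2, Rax, Trit1, Tshb, Ttr, Vcan and the genes called only under an alternative are outside that rule. Alternatives were other scalings and filters, DESeq2 1.42.0, limma-voom (limma 3.58.1), a robust fit, and leaving out abundant RNA genes or either FGR library. An offset for GC and length, a threshold of 0.01 and DESeq2 without independent filtering were chosen after seeing the data.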

Additional observations from a re-analysis of the deposited data

How the results depend on the processing

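No paired analysis was possible because FGR and WT share only 1 replicate number and WT has 1 library. The count of genes called, 1087 in all, was 2057 without a filter on low counts, 336 with a CPM of at least 1 in every library, 357 in DESeq2, 286 in DESeq2 without independent filtering and 369 at a threshold of 0.01. The share of calls that were higher in FGR was 39.0%, against 24.4% with library totals alone. Of the 8 thyroid hormone genes, Dio2 was called in every alternative with a test except the 2 DESeq2 settings, where 0 were. Pathway calls, 8 in the main test, numbered 14 without a filter (the 8 and Cbr2, Rasd2, Slc5a5, Slco1a5, Trit1 and Ttr), 2 with the CPM minimum, 3 in DESeq2, 4 in DESeq2 without independent filtering and 4 at a threshold of 0.01. Dio2's log2 fold change was -1.16 without FGR replicate 1 and -1.53 without FGR replicate 2, each a value with no test, since no residual degree of freedom is left. With a GC and length offset the log2 fold change was -0.074 for Rian, against 0.048. Depth limits Dio3, with 22 to 61 counts a library.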
